A study of Mus musculus with 5 samples.

Results

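Cytosines followed by adenine (CpA) were read in reduced representation bisulfite sequencing (RRBS) of mouse embryonic stem (ES) cells. RRBS cuts DNA with MspI at CCGG and converts unmethylated cytosine, so that a cytosine still read as C counts as methylated or unconverted. CpA sites were taken from the autosomal rows of the 5 deposited tables by the strand and the 5-base sequence context of each row. Of 4701763 autosomal cytosines listed in any library, 1040719 were CpA, and 225110 CpA sites were listed in all 5 libraries. Cytosines followed by T (CpT, 1197267 in any library) served as the background.

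Each genotype had 1 library. All 5 were grown in serum with leukemia inhibitory factor. WT and Fbxl10 T/T carry the strain label C57BL/6J, grew on mouse embryonic fibroblast feeders that were removed before use, and were harvested at passage 17. The labels do not spell out the allele T or say how many clones were used. For Ring1B -/-, Eed -/- and Ezh2 -/-, homozygous mutants of Polycomb genes, the labels give no strain, passage or feeders. Genotype, culture and library can therefore not be told apart, and every test below compares the reads of libraries.

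CpA is the most common form of non-CpG methylation in mammals and is known from ES cells and neurons. It is laid down by the de novo methyltransferases DNMT3A and DNMT3B, and unlike CpG methylation it has no symmetric partner that the maintenance enzyme DNMT1 could copy after replication. FBXL10 (KDM2B) binds unmethylated CpG islands and recruits a Polycomb repressive complex 1 variant. RING1B is the ubiquitin ligase of that complex, and EED and EZH2 are subunits of Polycomb repressive complex 2.

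The following stretches come from 1-kb windows where the CpA level was high in WT, fell most in Fbxl10 T/T, or was equal or higher there. Each was spelled from overlapping contexts of the mm9 tables and cut to at most 30 bases. Capitals mark the C and A of each CpA on the printed strand. The labels high, fallen and risen refer to the whole window, not to each site of the stretch.
chr5:142931407-142931436 (+), high in WT: CACAgtCAcCAtcctaCAgccggctaCAcc
chr17:28914955-28914984 (-), fallen in T/T: tgagccttgCAcctggtgagccttgCAccc
chr5:139449762-139449785 (+), fallen in T/T: aactCAagcCAtgctttctctctg
chr11:62434121-62434148 (+), fallen in T/T: gactgCAgactctggaagCAgatCAgct
chr19:43928549-43928578 (-), fallen in T/T: cgggCAtctaagcgCAtCAcctCAtctccg
chr8:3672159-3672188 (-), high in both: ccggtgCAggtagggctgggaactgCAccg
chr4:126287083-126287112 (-), risen in T/T: gctgcggagtcCAgCAgcgtctgcgcggct

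At chr5:142931407-142931436 neighbouring CpA sites differed widely. In WT the TACAG cytosine at base 17 of the stretch was read as C in 32 of 57 reads (56.1%), while the ACCAT cytosine at base 10 reached 5 of 57 reads (8.77%). In T/T the same cytosines stood at 6 of 22 reads (27.3%) and 0 of 22. The TACAC cytosine at base 27 stood at 7 of 13 reads in WT and 4 of 12 in T/T. The TACAG and TACAC cytosines were thus the highest of the stretch in both libraries.

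In the stretch on chr17, both CpA sites lie in TGCAC. The cytosine at base 10 was read as C in 9 of 48 WT reads (18.8%) and in 0 of 36 T/T reads, which allows up to 8.33%. For the cytosine at base 26 the values were 15 of 48 (31.3%) and 1 of 35 (2.86%). Both sites were lower in T/T. The chr5 stretch with aactCAagc held 7 of 62 reads (11.3%) at its CTCAA cytosine in WT and 0 of 36 in T/T. In the chr11 stretch only the TGCAG cytosine was listed, with 5 of 67 reads (7.46%) in WT and 0 of 31 in T/T. The latter allows up to 9.68%, so a fall at this site is not shown. On chr19 the ATCAC cytosine fell from 7 of 38 reads (18.4%) to 0 of 25, whereas the CGCAT cytosine 3 bases before it read 5 of 38 (13.2%) in WT and 3 of 25 in T/T. At 25 reads, 0 allows up to 3 reads, so these neighbours cannot be told apart in T/T.

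The libraries differed in depth. WT listed 898460 CpA sites with 25126472 reads in all and a median of 21 reads per site. Fbxl10 T/T listed 838440 sites with 16377733 reads and a median of 16. The Polycomb mutants listed between 366749 and 384473 sites with 1030477 to 1111236 reads and a median of 2. All but 491 CpA sites in WT, 729 in T/T and 8 to 78 in the Polycomb mutants lie within 29 bases of the cut end of a CCGG fragment. CpA was thus read almost only next to CCGG.

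Unconverted reads were frequent near the cut end in every class. With read positions counted from 1 at the cytosine of the cut CpG, and without sites at 50% or more and the most deeply read sites, position 4 was the highest. CpA there was at 4.48% in WT and 4.03% in T/T, and in Ring1B -/-, Eed -/- and Ezh2 -/- at 7.12%, 7.38% and 6.10%. CpT at that position stood at 3.23%, 3.03%, 10.2%, 8.82% and 6.37%. From position 11 to 29 the CpA level stayed between 1.27% and 1.54% in WT and between 0.442% and 0.532% in T/T, and was above CpT at 19 of 19 positions in both. For this reason a screened set of sites was added after the data were seen. It keeps read positions from 11 on, nearly all of which lie within 29. It leaves out sites at 50% or more with at least 10 reads in any library. The most deeply read sites (over 137 reads in WT, 97 in T/T and 15 to 21 in the Polycomb mutants) are also left out.

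**Figure D1:**
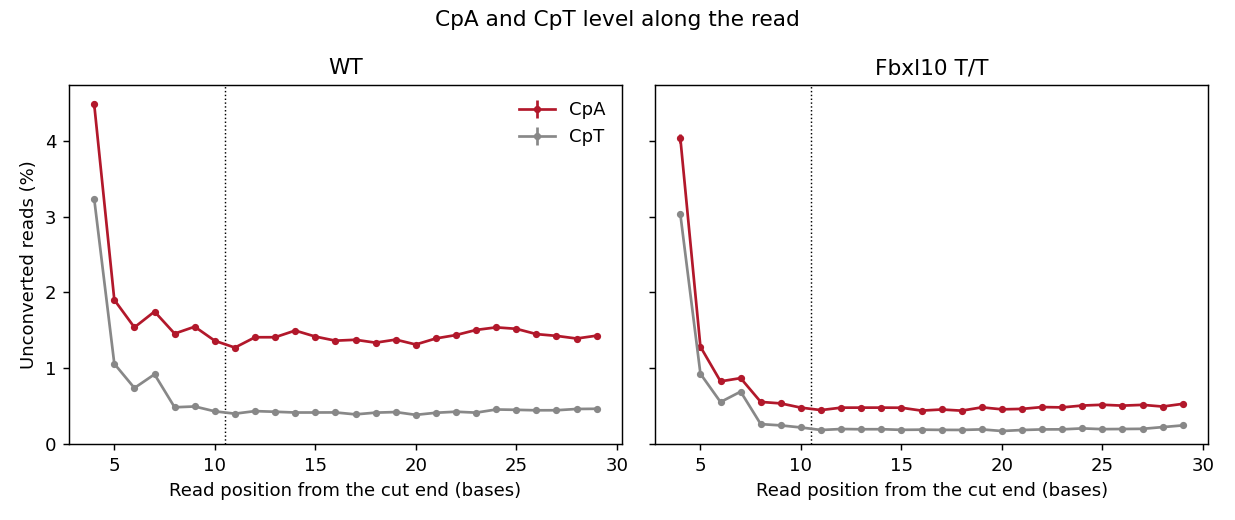
CpA and CpT level (% unconverted of summed reads, vertical axis) by read position from the cut end (bases, horizontal axis) in WT and Fbxl10 T/T, with 95% Wilson intervals. Both classes are highest at position 4, and from position 11 (dotted line) CpA lies above CpT at 19 of 19 positions in both libraries.

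CpA was unconverted more often than CpT in WT and less so in Fbxl10 T/T. Over all sites WT had a CpA level of 1.85% and T/T of 0.968%, while Ring1B -/- reached 2.40%, Eed -/- 2.92% and Ezh2 -/- 2.07%. The CpT levels of the same libraries were 0.699%, 0.486%, 2.66%, 2.73% and 1.97%. CpA minus CpT was 1.15 points in WT and 0.482 in T/T. For Ring1B -/- it was -0.265, for Eed -/- 0.194 and for Ezh2 -/- 0.105. CpG outside CCGG went the other way between WT and T/T, with 13.5% in WT and 20.9% in T/T. The Polycomb mutants had between 11.3% and 12.7%.

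In the screened set the CpA level was 1.41% in WT (95% interval 1.41 to 1.42) against 0.428% for CpT, a difference of 0.986 points (0.979 to 0.992). T/T stood at 0.483% against 0.198%, a difference of 0.284 points (0.280 to 0.289). The intervals of WT and T/T do not overlap. The Polycomb mutants had CpA at 1.75%, 2.33% and 1.63% over a CpT background of 1.71%, 1.98% and 1.46% in the order Ring1B -/-, Eed -/- and Ezh2 -/-. Their differences were 0.0439 points (0.00392 to 0.0840), 0.352 (0.308 to 0.396) and 0.171 (0.132 to 0.209). For Ring1B -/- Fisher's exact test (two-sided) gave p = 0.0315, which adjustment over the 5 libraries left at 0.0315, and its sign is opposite to that over all sites. Intervals cover counting error only and are too narrow, because 1 read can cover several CpA sites.

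**Figure D2:**
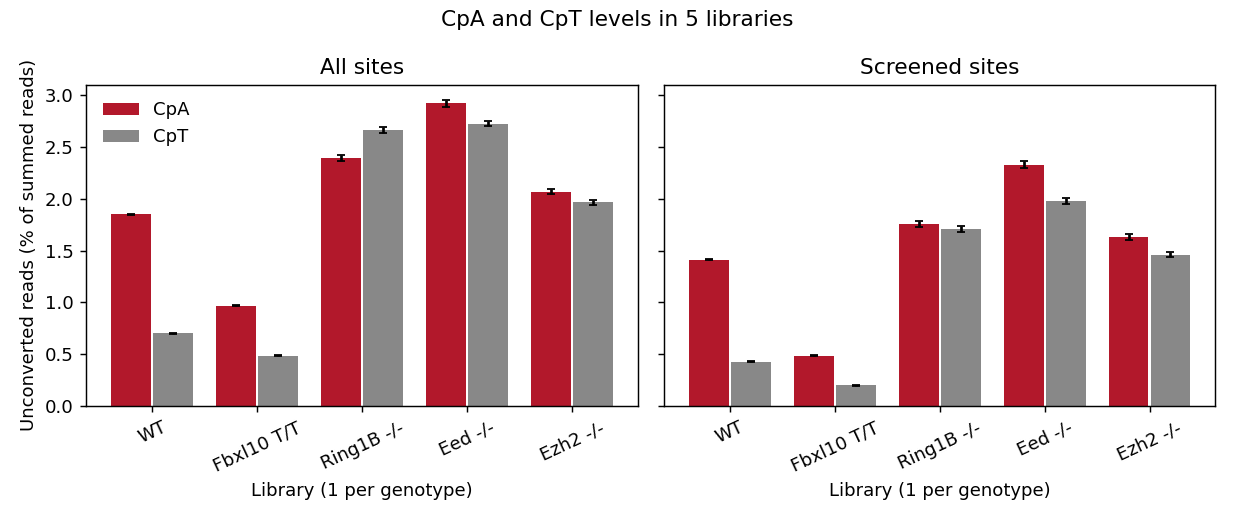
Level of CpA and CpT (% unconverted of summed reads) in the 5 libraries, over all sites and over the screened sites, with 95% Wilson intervals. In WT the CpA bar stands 0.986 points above the CpT bar over screened sites, in Fbxl10 T/T 0.284 points, and in the Polycomb mutants both bars lie above 1.4%.

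At sites listed in both libraries of a pair, the screened CpA level was 1.37% in WT and 0.468% in T/T, a ratio of 0.342. The CpT level of the same pair was 0.394% and 0.187%, a ratio of 0.475, so the background was lower in T/T as well. CpA minus CpT was 0.973 points in WT and 0.281 in T/T, 0.289 of the WT value. For Ring1B -/-, Eed -/- and Ezh2 -/-, all measured against the same WT library, CpA minus CpT came to 0.0306, 0.343 and 0.176 of the WT value at the shared sites. CpT there was 4.64, 5.40 and 3.95 times the WT level. The CpT background thus differed between the libraries as well, and the part of incomplete conversion in these values was not tested.

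The difference between WT and T/T was spread over the chromosomes. Screened CpA minus CpT was 0.983 ± 0.057 points (SD over 19 chromosomes) in WT and 0.285 ± 0.015 in T/T. The lowest WT chromosome, at 0.859, lay above the highest T/T chromosome, at 0.317. The chromosomes come from 1 library each and are not replicates. Over all sites a single window, chr2:98506001-98507000, held 9.30% of the unconverted CpA reads of WT and 8.39% of those of T/T on 5 sites. The CCCAC cytosine at position 17051892 of chromosome 2 was read as C in 99.7% of reads in both.

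Most single CpA sites showed no unconverted read. Among sites with at least 20 reads, 73.2% of 462070 stood at 0 in WT and 89.2% of 380634 in T/T, against 86.9% and 94.1% of CpT sites. Sites at 10% or more made up 4.18% of CpA in WT and 1.49% in T/T, and 1.07% and 0.867% of CpT. A CpA level of 50% or more at 10 or more reads was seen at 1042 of 550499 sites in WT (1.89 per 1000) and at 674 of 498037 in T/T (1.35 per 1000). For CpT the shares were close to each other, at 774 of 626872 sites in WT (1.23 per 1000) and 712 of 569440 in T/T (1.25 per 1000). Few sites of the Polycomb mutants had 10 reads, and of these a larger share was at 50% or more. It was 73 of 4970 CpA sites for Ring1B -/- (14.7 per 1000), 43 of 4365 for Eed -/- (9.85 per 1000) and 32 of 2522 for Ezh2 -/- (12.7 per 1000), with CpT at 12.4, 9.35 and 6.78 per 1000. Of the 797 such WT CpA sites read 10 times or more in T/T, 462 (58.0%) were also at 50% or more there. For CpT it was 514 of 661 (77.8%), a larger share. Of 135 WT CpA sites at 95% or more, 123 were at 95% or more in T/T, and of 200 WT CpT sites 182 were.

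CAC was the highest of the 4 CpA triplets in each library over screened sites. It was at 2.14% in WT, where CAG stood at 1.28%, CAA at 0.981% and CAT between CAA and CAG. T/T had CAC at 0.592%, CAG at 0.506%, CAA at 0.376% and CAT at 0.333%. CAC minus CAG was 0.859 points (0.844 to 0.875) in WT and 0.0863 points (0.0755 to 0.0970) in T/T. The Polycomb mutants showed 0.473 points in Ring1B -/-, 0.888 in Eed -/- and 0.349 in Ezh2 -/-. CAC was above CAG on 19 of 19 chromosomes in each of the 5 libraries. The largest adjusted p over the 5 libraries, from Fisher's exact test, was 1.99e-20 in Ezh2 -/-. For CpT, CTC was above CTG in each library too. CTC over CTG was 1.62 in WT and 1.14 in T/T, beside 1.67 and 1.17 for CAC over CAG. CTC minus CTG was 0.226 and 0.0276 points. For Ezh2, Eed and Ring1B mutants it was 0.131, 0.238 and 0.0748 points. Their ratios were 1.09, 1.13 and 1.04, beside 1.225, 1.43 and 1.29 for CAC over CAG. The ratios of CpA and CpT were thus close in WT and T/T and further apart in the Polycomb mutants.

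Over all sites CAC minus CAG in T/T was 0.312 points. It was 0.0169 without sites at 50% or more, which include the chr2 CCCAC site, -0.0353 on the minus strand alone and -0.00370 at read positions 11 to 29 without the other filters. The T/T order of CAC and CAG thus turned with the choice of sites, while in WT the difference lay between 0.572 and 1.04 points in the settings run. In windows at 70% CpG methylation or more in both libraries, CAC was at 4.24% and CAG at 2.72% in WT, and at 1.44% and 1.28% in T/T. The ratio of CAC to CAG was 1.56 (1.51 to 1.61) in WT and 1.12 (1.05 to 1.20) in T/T. The T/T ratio over the WT ratio was 0.720 (0.671 to 0.773), so the fall was larger for CAC than for CAG in these windows. The CpT background showed the same order. CTC went from 1.19% to 0.449%, 0.377 of its WT level, and CTG from 0.609% to 0.330%, 0.541 of its WT level. The larger fall before C was thus not particular to CpA.

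The base before the cytosine also separated the sites. In WT, ACA stood at 2.72%, TCA at 1.30%, CCA at 1.10% and GCA at 1.04%. In T/T the order was ACA at 0.834%, GCA at 0.440%, TCA at 0.413% and CCA at 0.359%. ACA was highest in each of the 5 libraries, at 2.08% in Ring1B -/-, 2.98% in Eed -/- and 1.87% in Ezh2 -/-. CpT after A reached 0.616% in WT and 0.245% in T/T.

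Among the 64 contexts of 5 bases around the C of CpA, TACAC was highest in WT at 8.52% of 90271 reads, followed by TACAG at 7.24% and CACAC at 4.64%. The lowest were CGCAA at 0.405%, GGCAA at 0.408% and GCCAT at 0.432%. These 6 contexts stood in T/T at 2.12%, 2.44%, 1.13%, 0.223%, 0.225% and 0.184%. T/T was below WT in 64 of 64 contexts, and every CpT context with the same flanks was lower in T/T as well. CpA was above the CpT context with the same flanks in 64 of 64 in both libraries. The T/T level was 0.249 of the WT level for TACAC, 0.338 for TACAG and 0.243 for CACAC, against 0.551 for CGCAA, 0.550 for GGCAA and 0.426 for GCCAT. CpT with the flanks of TACAC went from 1.86% to 0.432%, of TACAG from 1.14% to 0.398% and of CACAC from 1.08% to 0.298%. With the flanks of CGCAA it went from 0.198% to 0.139%, of GGCAA from 0.221% to 0.128% and of GCCAT from 0.227% to 0.131%.

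The same contexts led in the Polycomb mutants. TACAC was highest in Ring1B -/- at 3.56%, in Eed -/- at 5.93% and in Ezh2 -/- at 2.85%, and CACAC came next in each. The CpT context with the flanks of TACAC read 2.23%, 2.77% and 1.86% there. CpA lay above its CpT context in 40 of 64 contexts in Ring1B -/-, 53 in Eed -/- and 47 in Ezh2 -/-. Spearman's rho of the 64 context levels with those of WT was 0.937 for T/T, 0.778 for Ring1B -/-, 0.812 for Eed -/- and 0.737 for Ezh2 -/-, as a description over contexts.

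**Figure D3:**
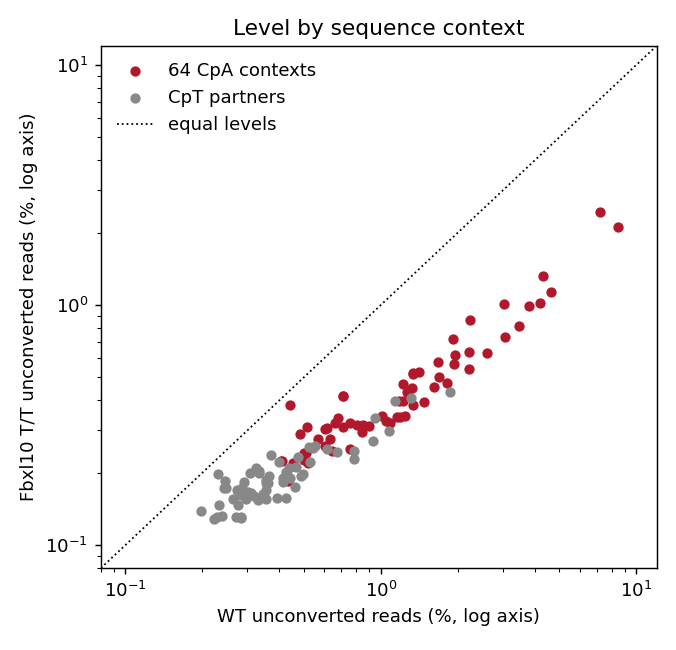
Level of the 64 CpA contexts and of the CpT contexts with the same flanks in WT (horizontal) and Fbxl10 T/T (vertical), % unconverted of screened reads, both axes logarithmic. All 64 CpA contexts and all CpT contexts lie below the line of equal levels. The 2 highest CpA contexts stand at 8.52% and 7.24% in WT and at 2.12% and 2.44% in T/T.

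A CAG triplet reads CTG on the opposite strand, so both strands of the same place can be compared. In WT, 65992 triplets with 10 reads on each strand had CAG at 1.25% and CTG at 0.413%. T/T had 0.615% and 0.309% over 64646 triplets. In windows at 70% CpG or more, CAG stood at 2.71% and CTG at 0.594% in WT, and at 1.29% and 0.386% in T/T. CpA was the higher strand in both libraries, by 0.839 points (0.826 to 0.853) in WT and 0.305 (0.293 to 0.318) in T/T.

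CpA followed the CpG level of its 1-kb window, measured at CpGs outside CCGG. In WT the screened CpA level was 0.180% in windows under 10% CpG, 0.400% from 10 to 30%, 1.02% from 30 to 70% and 2.63% at 70% or more. T/T stood at 0.116%, 0.243%, 0.415% and 1.05% in these steps. High minus low windows gave 2.45 points (2.42 to 2.48) in WT and 0.930 points (0.907 to 0.953) in T/T. Over all sites the values were 2.34 and 0.972 points.

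The backgrounds rose in the same windows, by less. CpT went from 0.156% under 10% CpG to 0.709% at 70% or more in WT, and from 0.107% to 0.318% in T/T. CpC not followed by G went from 0.154% to 0.298% in WT and from 0.118% to 0.193% in T/T. CpA minus CpT was 0.0238 points under 10% CpG and 1.92 points at 70% or more in WT, and 0.00892 and 0.728 points in T/T. In windows under 10% CpG the CpA level was close to the background, and over all sites it was below it in T/T, by -0.00320 points.

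**Figure D4:**
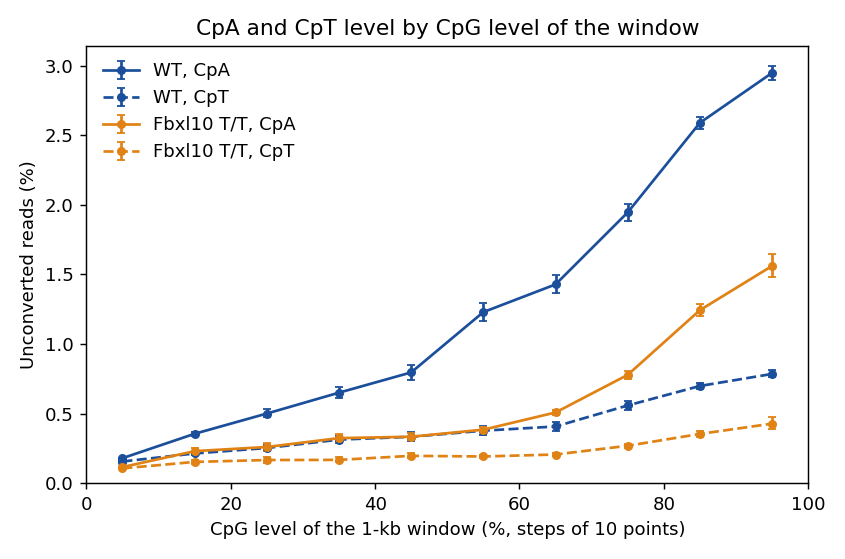
Screened CpA (solid) and CpT (dashed) level against the CpG level of the 1-kb window in steps of 10 points, WT and Fbxl10 T/T, with 95% Wilson intervals. In the step from 90 to 100% CpG, CpA stands at 2.95% in WT and 1.56% in T/T, and in the step from 50 to 60% at 1.23% and 0.385%.

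Few windows of the Polycomb mutants reached 70% CpG at the read minimum. There were 83 for Ring1B -/-, 91 for Eed -/- and 52 for Ezh2 -/-, whereas WT had 7721 and T/T 6008. High minus low windows gave 0.813 points (0.217 to 1.66; adjusted p = 0.00999) in Ring1B -/-, 1.71 (lower 95% bound 0.928; adjusted p = 3.06e-06) in Eed -/- and 0.714 (-0.0573 to 2.01; adjusted p = 0.104) in Ezh2 -/-, by Fisher's exact test over the 5 libraries. CpA did not rise step by step with CpG in these libraries. In windows from 10 to 30% CpG it was at 2.44% in Ring1B -/-, 3.60% in Eed -/- and 2.88% in Ezh2 -/-, above the 1.94%, 3.09% and 1.86% at 70% or more. CpT from 10 to 30% CpG was at 3.25%, 4.02% and 2.85%. CpA minus CpT in the high windows was not distinguishable from 0 at this depth in any of them, with intervals of -0.562 to 1.39, -0.00297 to 2.31 and -0.138 to 2.39 points.

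Windows that kept a high CpG level lost CpA in Fbxl10 T/T. In 3767 windows at 70% or more in both libraries the mean CpG level was 88.4% in WT and 83.2% in T/T. Screened CpA there was 2.75% (2.71 to 2.79) in WT and 1.12% (1.09 to 1.15) in T/T. CpT was 0.728% and 0.329%, and CpC not before G 0.302% and 0.178%. CpA minus CpT in T/T was 0.391 of its WT value in these windows.

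The fall was larger where CpG fell too. In 2297 windows at 70% or more in WT that lost 20 points or more, mean CpG went from 88.3% to 53.6% and CpA from 2.46% to 0.361%. CpT went from 0.652% to 0.172%. CpA minus CpT fell to 0.105 of its WT value, from 1.81 to 0.190 points.

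Windows that gained CpG methylation from under 10% had more CpA in T/T than in WT. In 3783 windows under 10% in WT that rose by 20 points or more, mean CpG went from 4.08% to 55.1%, and CpA from 0.205% (0.197 to 0.212) to 0.476% (0.462 to 0.491). The rise of 0.272 points (0.255 to 0.288) stood beside a rise of 0.0678 in CpT and of 0.0402 in CpC not before G. In the 12472 windows under 10% in WT that stayed within 5 points, CpA went from 0.168% to 0.115% and CpT from 0.155% to 0.107%. In 1767 windows from 10 to 30% in WT that rose by 20 points or more, screened CpA went from 0.382% to 0.555% and CpT from 0.211% to 0.217%. Over all sites both rose alike there, and CpA minus CpT was 0.176 points in WT and 0.175 in T/T. Of the windows under 10% in WT, those with a CpG rise had more CpA in T/T and those without had less.

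Over screened sites of the risen windows CAG went from 0.201% to 0.560%, CAC from 0.228% to 0.488%, CAA from 0.197% to 0.317% and CAT from 0.167% to 0.254%. CAG was the highest of the 4 triplets in T/T there. Over all sites CAT was the highest in these windows, at 0.825% in T/T, with CAG at 0.801% and CAC at 0.788%, so the order turned with the choice of sites.

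The CpA level of risen windows was set beside windows of the same CpG class. The classes are wide, and CpG was not matched inside them. T/T windows that had risen from under 10% to 70% or more (558 windows) had CpA at 0.807% (0.756 to 0.862). T/T windows at that level in both libraries stood at 1.12%, and WT windows at that level at 2.61%. From 50 to 70% CpG, the risen T/T windows had 0.489% (0.469 to 0.510), T/T windows at that level in both libraries 0.439% (0.382 to 0.504), and WT windows at that level 1.32%. From 30 to 50% CpG they were 0.352% (0.328 to 0.378), 0.227% (0.178 to 0.289) and 0.686%. Against standing T/T windows, the risen ones were thus lower at 70% or more, overlapped in interval from 50 to 70% and were higher from 30 to 50%. For all T/T windows, CpA was 0.779% from 70 to 80% CpG and 1.24% from 80 to 90%. Whether CpG inside the class accounts for the lower value at 70% or more was not tested. CpT at 70% or more was 0.316% in the risen, 0.329% in the standing T/T and 0.690% in the WT windows. In each class WT had the most CpA.

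**Figure D5:**
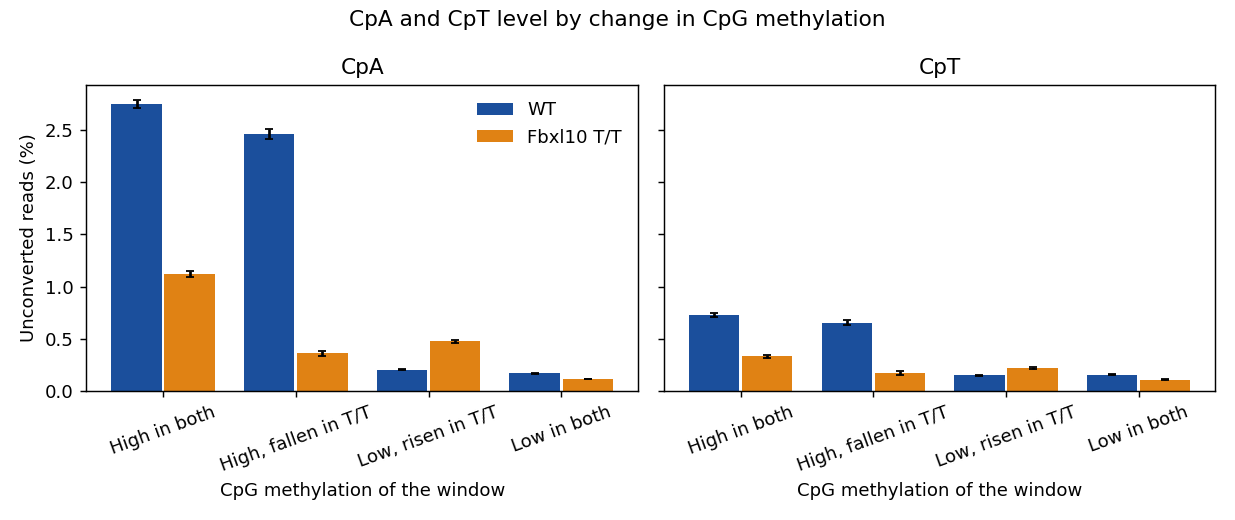
Screened CpA (left) and CpT (right) level in WT and Fbxl10 T/T for 4 classes of 1-kb windows by CpG methylation (high: 70% or more in WT; low: under 10% in WT), with 95% Wilson intervals. CpA is lower in T/T in both high classes (2.75% against 1.12% where both are high) and higher in the risen class (0.205% against 0.476%).

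Inside windows at 70% or more, CpA differed with the distance to the nearest listed CpG. Sequence context was not held fixed across these steps. In WT it was 1.78% at 2 to 3 bases, 3.21% at 4 to 6 bases, 2.64% at 7 to 10 bases and 2.73% at 11 to 29 bases. T/T showed 0.841%, 1.28%, 0.990% and 1.06%. The highest step was the same in both libraries. CpT in these steps ranged from 0.636% to 0.797% in WT and from 0.283% to 0.383% in T/T. Windows with 3 to 4 CpGs had CpA at 2.69% and windows with 10 or more at 2.38% in WT, and 1.09% and 0.923% in T/T.

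Single windows moved mostly downwards in T/T. Windows with at least 5 sites of 10 reads in both libraries were tested on summed reads by Fisher's exact test with Benjamini-Hochberg adjustment over CpA and CpT windows together. A call needed a difference of at least 2 points and an adjusted p below 0.05. CpA was lower in T/T in 932 of 39209 windows (2.38%) and higher in 74 (0.189%), together 2.57%. CpT was lower in 17 of 43673 windows (0.0389%) and higher in 30 (0.0687%), together 0.108%. Falls outnumbered rises for CpA and not for CpT. The WT level over all sites was 1.85% for CpA and 0.699% for CpT, so CpT windows had less room to fall by 2 points. The CpT count is therefore a limited background for falls. With a minimum of 5 points, 598 CpA windows were lower and 18 higher, and over screened sites 326 of 25245 were lower and 40 higher.

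The 932 lower windows went from a median CpA level of 6.20% in WT to 0 in T/T. Over all tested windows the median was 0.948% in WT and 0 in T/T too. A CpG level was measured in 181 of the 932 lower windows. In 167 of these it was 70% or more in WT, against 3496 of 20149 windows with a CpG level among all tested. The 74 higher windows went from a median of 0.206% to 3.75%. CpG was measured in both libraries in 70 of them, and it had risen by 20 points or more in 57, against 4587 of 19426 among all tested. CpT, tested in 581 of the lower and 67 of the higher windows, was called in the same direction in 1 and 3 of them. For the lower windows the low CpT level in WT limits this count too. The called windows are chosen by their CpA difference, so their medians are a description.

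The largest called fall was at chr5:121680001-121681000, from 31 of 103 reads (30.1%) to 3 of 74 (4.05%; adjusted p = 0.00199, Fisher's exact test), with CpG at 94.8% in WT. At chr3:37687001-37688000 CpA went from 46 of 179 reads (25.7%) to 0 of 77. The largest called rise, at chr10:11211001-11212000, went from 129 of 7049 CpA reads (1.83%) to 1087 of 5088 (21.4%), with CpG at 3.39% in WT and 19.1 points higher in T/T. The calls named here were made over all sites, without the depth limit of the screened set. At chr12:81269001-81270000 CpA went from 0 of 397 reads to 22 of 178 (12.4%) while CpG rose by 72.4 points from 5.16%.

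Windows with at least 10 CpA and 10 CpT sites of 10 reads were ranked by the mean over CpA sites minus the mean over CpT sites. Of 9538 such windows, 146 exceeded 5 points in WT and 107 in T/T. The highest in both libraries was chr8:3672001-3673000, at 15.9% ± 22.9 (SD over 11 sites) in WT and 19.3% ± 25.9 (SD over 10 sites) in T/T, with CpG at 0 and 1.64%. It overlaps the placed promoter of Fcor, and its TGCAG and TGCAC cytosines, printed above, were each read as C in 15 of 28 WT reads and in 7 and 9 of 14 T/T reads. CpA was high there with CpG at or near 0. The TGCAG cytosine lies at read position 6, both cytosines were at 50% or more, and neither is in the screened set.

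The other 5 highest WT windows were chr4:118065001-118066000 at 12.4%, chr17:24210001-24211000 at 11.5%, which overlaps the promoter of Kctd5, chr14:30802001-30803000 at 11.6%, chr5:142931001-142932000 at 11.3% and chr11:82258001-82259000 at 11.5%. In these 5 windows every WT site at 20% or more lay before read position 11 or was at 50% or more in a library. Their T/T means were 7.35%, 6.59%, 7.99%, 4.98% and 8.94%. All 5 were lower in T/T, within SDs over sites that exceed the means. These windows were chosen for a high WT value, so a lower T/T value at them is no test. The highest in T/T beside chr8:3672001-3673000 were chr11:117866001-117867000 at 11.6%, chr14:55045001-55046000 at 11.5%, chr3:86592001-86593000 at 10.6%, chr4:126287001-126288000 at 10.6% and chr2:22600001-22601000 at 10.4%. The chr14:55045001-55046000 window overlaps the promoter of Mrpl52, a mitochondrial ribosomal protein gene, and stood at 10.8% in WT. In this window and in chr11:117866001-117867000, too, every WT site at 20% or more lay before read position 11 or was at 50% or more in a library.

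The 4 largest falls were chr17:28914001-28915000, from 9.23% ± 11.2 (13 sites) to 0.260% ± 0.861 (11 sites), chr5:139449001-139450000, from 12.2% to 1.33%, chr11:62434001-62435000, from 8.27% to 0 of 10 sites, and chr19:43928001-43929000, from 10.1% to 2.69%. None of these 4 overlaps a placed promoter, and none had enough CpGs outside CCGG for a CpG level. Among the 4 largest rises, chr2:22600001-22601000 went from 0 to 10.4% ± 21.9 (SD over 10 sites) while CpG went from 1.29% to 45.4%. The window chr4:126287001-126288000 went from 2.99% to 10.6% ± 22.9 (SD over 11 sites) while CpG went from 6.51% to 63.0%. Both T/T SDs exceed their means. The chr4 window overlaps the placed promoter of 5730409E04Rik. In its printed stretch the TCCAG cytosine read 12 of 70 in WT and 13 of 22 in T/T. The AGCAG cytosine read 11 of 70 and 12 of 22. Both cytosines were at 50% or more in T/T, so neither is in the screened set. The other 2, chr15:34168001-34169000 and chr8:114255001-114256000, ranked there because CpT fell, from 8.15% to 0 and from 6.34% to 0.362%, with CpA at 1.62% in WT and 0.543% in T/T in the first and at 2.40% and 3.10% in the second.

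Promoters were added after the data were seen. RefSeq promoter sequences of GRCm38.p6, each 250 bases before to 50 after a start, were placed where every base spelled by the tables was identical, which placed 9535 promoters of 8453 genes. Of these genes, 4511 had at least 3 screened CpA sites of 10 reads and 3 CpGs in WT and T/T. At 28 promoters with CpG at 70% or more in WT, summed CpA was 1.57% (1.29 to 1.91) in WT and 0.292% (0.171 to 0.499) in T/T, and CpT 0.399% and 0.364%. CpA was lower in T/T at 21 of them, higher at 3 and 0 in both at 4. CpG there was 84.8% in WT and 72.9% in T/T.

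Among the methylated promoters, the 8 with the highest CpA minus CpT in WT were described. Ptpn20, a protein tyrosine phosphatase gene (chr14:34402206-34402505), had 6 of 130 CpA reads (4.62%) in WT and 0 of 98 in T/T, which allows up to 3.06%, with CpG at 72.5% and 75.0%. Timm8a2 (chr14:122433646-122433945) had 13 of 432 reads (3.01%) and 2 of 287 (0.697%), with CpG at 77.8% and 77.0%. CpA was lower in T/T at both while CpG was near its WT level. Slc6a9, which encodes the glycine transporter GLYT1, had 3 of 112 and 1 of 67 reads, 1700094J05Rik 10 of 393 and 1 of 291, and Gm51454 8 of 265 and 0 of 125. Gm31579 had 2 of 62 and 0 of 86 reads and Gm19583 6 of 269 and 1 of 174. Espnl went the other way, with 3 of 134 and 2 of 66 reads. Since these were chosen for a high WT value, a lower T/T value at them is no test.

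At 544 promoters with CpG under 10% in WT that rose by 20 points or more, CpG went from 3.08% to 52.6% and CpA from 0.155% (0.137 to 0.176) to 0.462% (0.419 to 0.509). CpT went from 0.118% to 0.173%. CpA was higher in T/T at 173 promoters, lower at 82 and 0 in both at 289. At 3555 promoters that stayed within 5 points, CpA went from 0.149% to 0.106% and CpT from 0.153% to 0.111%, so CpA was at its background there.

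The 8 risen promoters with the highest CpA minus CpT in T/T had between 4 and 19 unconverted CpA reads there. Runx3, a Runt-domain transcription factor gene, had 0 of 204 CpA reads in WT and 4 of 73 (5.48%) in T/T, with CpG at 1.33% and 74.8%. Nkx3-2, a homeobox gene, had 9 of 580 (1.55%) and 19 of 385 (4.94%), with CpG at 2.41% and 51.2%. Cartpt, which encodes a neuropeptide precursor, had 10 of 168 (5.95%) and 8 of 50. Ppp1r36 went from 0 of 266 to 8 of 151, Rasgef1a from 0 of 160 to 5 of 70, Rtn1 from 0 of 161 to 5 of 121, Phf24 from 2 of 925 to 12 of 316 and Gm46873 from 4 of 259 to 12 of 120. They were chosen for these values, which are a description.

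The 8 promoters with the largest CpG rise had at most 2 unconverted CpA reads each in T/T. Nkx6-2, a homeobox gene of neural progenitors, had CpG at 4.76% in WT and 88.6% in T/T, with 0 of 194 and 0 of 70 CpA reads, which allows up to 4.29% in T/T. Foxp1, a forkhead transcription factor gene, had CpG at 0 and 74.8% with 0 of 174 and 0 of 80 CpA reads. Cavin1, a caveolar coat gene, had 1 of 357 and 2 of 250 reads, and Tril, a co-receptor gene of Toll-like receptor signalling, 2 of 566 and 2 of 396. Arnt2, a bHLH-PAS transcription factor gene, had 0 of 162 and 1 of 75 reads, and Bmp8b, which encodes a bone morphogenetic protein, 0 of 207 and 1 of 170. Septin9 and 2210016F16Rik had no unconverted CpA read in either library, in 130 and 64 and in 420 and 165 reads. At this depth a CpA level of the size seen over the 544 risen promoters was not detectable at a single promoter.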

How the data were processed

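RRBS libraries of 5 genotypes, 1 each, were analysed; the submitters' processing notes name BSMAP and mm9. Libraries were pooled before conversion with CpG-methylated control DNA, per the labels. The counts are deposited reads showing C, and C or T, at each cytosine (file headers). Expected counts, which the authors scaled by the opposite strand's share of G and deposited beside them, served as an alternative, rounded to whole numbers. The deposited fraction was not used for levels. Duplicate removal and trimming are not given in the sources used here.

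Levels are summed C reads over summed reads, with Wilson or Newcombe 95% intervals and two-sided Fisher's exact tests (Python 3.11.15, scipy 1.17.1, numpy 2.4.6, pandas 2.3.3). Adjustment was by Benjamini-Hochberg. With 1 library per genotype no test holds a spread between cultures. Median depth per CpA site was 21, 16, 2, 2 and 2 reads. Windows had 1000 bases and at least 3 CpGs outside CCGG with 30 reads.

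The members and lists were chosen with earlier results of these data known. Named windows are the 6 highest in WT and in T/T and the 4 largest rises and falls; named contexts are the 3 highest and lowest of 64; the screened set, the ranking of contexts on it, the promoter rules, the single windows from the call list and printing at most 30 bases of a stretch were added after their values were seen. Exons, introns and UTRs are not given, because no mm9 annotation was used here.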

Additional observations from a re-analysis of the deposited data

How the results depend on the processing

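No paired analysis was possible because each genotype has 1 library, and for the same reason no library could be left out. Over the main comparisons 198 alternative values kept direction and call, 13 reversed, 5 lost the call, 4 gained it and 4 counts moved; for single contexts 79 values moved by more than their interval and 29 did not. At 10 reads per site the Polycomb libraries keep 2522 to 4970 CpA sites, and there CpA minus CpT in Ring1B -/- became 0.651 points, CAC minus CAG became -0.868 in Ring1B -/-, -1.58 in Eed -/- and -1.75 in Ezh2 -/-, and CpA minus WT became -1.41, -1.29 and -1.87. With means over such sites CpA minus CpT was -0.284 in Ring1B -/-, -0.132 in Eed -/- and 0.354 in Ezh2 -/-, and CAC minus CAG 0.312 in Eed -/- and 1.04 in Ezh2 -/-. CpA minus CpT was 0.0439 (screened sites) and 0.174 (read positions 11 to 29) in Ring1B -/-, and in Ezh2 -/- 0.0158 without the most deeply read sites and -0.151 against CpC. In T/T, CAC minus CAG was -0.0353 on the minus strand and -0.00370 at read positions 11 to 29. High minus low windows in Ezh2 -/-, 0.747 over all sites, was 0.779 without sites at 50% or more, 0.951 at read positions 11 to 29, 3.26 with all CpGs and 1.07 in 2-kb windows. CpA windows lower and higher in T/T numbered 598 and 18 at 5 points or more, and 326 and 40 over screened sites, where fewer windows were tested. The causes were not tested. CpA stayed above CpT in WT and T/T, CpA of T/T stayed below WT, and CpA rose in T/T where CpG rose from under 10% in every setting run for them. The screened sites and read positions 11 to 29 were chosen after seeing the data. A median of 2 reads per site in the Polycomb mutants allows sums over many sites only.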
